A study of Homo sapiens with 3 samples.

Results

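The 78 genes described here encode the nuclear-encoded subunits of the respiratory chain, of 18417 genes measured. They were chosen by symbol, as protein-coding genes of the NDUFA, NDUFB, NDUFC, NDUFS, NDUFV, UQCR, COX4 to COX8, ATP5F, ATP5M and ATP5P families with SDHA, SDHC, SDHD and CYC1, and the rule uses no measured value. Their messages were read on Affymetrix Human Gene 1.0 ST microarrays, 1 for each of 3 cultures. The cultures were LoVo-R8 cells with 8 μM irinotecan (here R8+), LoVo-R8 cells without irinotecan (R8-) and parental LoVo cells. LoVo is a widely used line of human colorectal cancer cells, and LoVo-R8 is a resistant line derived from it by raising the dose of irinotecan, a topoisomerase I inhibitor, stepwise between 0.1 and 8 μM. A text common to all labels mentions irinotecan for 24 h before RNA purification. The sources used here do not say whether parental LoVo received it, or whether LoVo-R8 is 1 clone. No group has a replicate, so no test, standard deviation or p-value can be given. Each comparison sets 1 array against another, and both comparisons with parental LoVo share the same parental array.

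Of the genes that matched by symbol, 3 were left out as a pseudogene, a transcribed pseudogene or a noncoding RNA, and 6 lie only on probe sets that name several genes (ATP5F1E, NDUFC2, NDUFS5, UQCRHL and 2 readthrough genes). SDHB and UQCRFS1 were not analysed here. The 78 genes lie on 22 chromosomes and belong to complex I (33 genes), complex II (3 genes), complex III (8 genes), complex IV (17 genes) and complex V (17 genes). None was removed by a filter on low values. Many of these genes have processed pseudogenes elsewhere in the genome, whose sequence a probe set may share.

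The respiratory chain lies in the inner mitochondrial membrane. Complexes I and II pass electrons taken from NADH and from succinate to ubiquinone, complex III passes them to cytochrome c, and complex IV, cytochrome c oxidase, passes them to oxygen. The proton gradient built by complexes I, III and IV drives complex V, the ATP synthase. Most subunits are encoded in the nucleus and imported, while a few core subunits are encoded in mitochondrial DNA, so that complexes I, III, IV and V join products of both genomes.

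The deposited values are log2 levels made by the robust multichip average (RMA), so that a difference of 1 log2 unit is 2-fold and a difference of 0.58 is 1.5-fold. The upper quartile of all 33297 probe sets was 8.67 in R8+, 8.60 in R8- and 8.68 in parental LoVo. The subunit genes lay in the bright part of each array, with 56 at or above that quartile in R8+, 53 in R8- and 55 in parental LoVo. Their median level was 9.66 in R8+, 9.29 in R8- and 9.62 in parental LoVo, so that R8- stood lowest. Of 8 markers of colorectal epithelium, 6 were above the upper quartile on all arrays, while VIL1 and KRT20 were not. Of 6 markers of cells that the cultures should lack, 0 reached the upper quartile on any array, PTPRC stood at 4.12 on each, and COL1A1 and DES lay above the array median. Among these subunits, 17 (21.8%) had the same value on at least 2 arrays, against 26.1% of all genes.

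Relative to parental LoVo, the respiratory chain genes as a whole were centred on no difference in R8+ and slightly lower in R8-. Their median log2 difference was 0 in R8+ against parental LoVo, with 38 genes above parental LoVo, 35 below and 5 equal. In R8- against parental LoVo the median was -0.13, with 20 genes above, 49 (62.8%) below and 9 equal. R8- was below parental LoVo for 38.5% of all genes and for 58.4% of the genes as bright as the upper quartile (a mean level of at least 8.64), against 67.3% of the equally bright subunit genes. R8+ was below parental LoVo for 44.7% of all genes and 54.6% of the bright genes, against 50.9% of the equally bright subunit genes. R8+ stood above R8- for 58 subunit genes, below it for 13 and level with it for 7, with a median difference of 0.17. R8+ was above R8- for 39.4% of all genes and 57.9% of the bright genes, against 76.4% of the equally bright subunit genes. The median over all 18417 genes was 0 in each of these comparisons. Among the 5371 bright genes the median was -0.04 for R8+ against parental LoVo, -0.09 for R8- against parental LoVo and 0.04 for R8+ against R8-. The 55 equally bright subunit genes had medians of -0.01, -0.16 and 0.18 in the same order. In cultures measured in bulk, a lower level per cell and fewer cells that express the gene cannot be told apart.

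**Figure D1:**
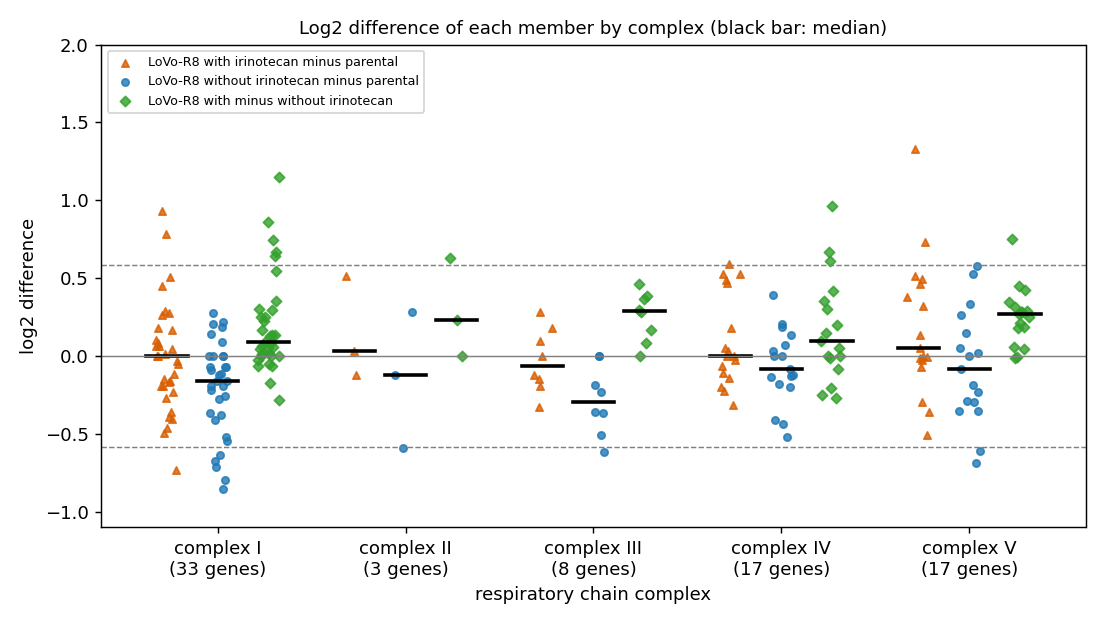
Log2 difference (vertical axis) of every subunit gene by complex (horizontal axis), with triangles for LoVo-R8 with irinotecan minus parental LoVo, circles for LoVo-R8 without irinotecan minus parental LoVo and diamonds for LoVo-R8 with minus without irinotecan. Black bars are medians and dashed lines mark 1.5-fold; the diamonds lie mostly above 0, with 58 of 78 genes above it.

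Against parental LoVo the subunit genes past 1.5-fold were about as frequent as among all genes or fewer, except those lower in R8-. Among bright genes, those lower in R8- were about as frequent in the subunit genes as in all. Between R8+ and R8-, subunit genes differed by 1.5-fold more often than all genes did. In R8+ against parental LoVo, 5 genes (6.41%) were at least 1.5-fold higher, where 5.79% of all genes were, and 1 gene (1.28%) was at least 1.5-fold lower, where 7.19% of all genes were. The 5 higher genes were ATP5MC1, ATP5MC2, NDUFB6, NDUFA3 and COX6C, and the lower gene was NDUFS1. In R8- against parental LoVo, 0 genes were at least 1.5-fold higher (4.37% of all genes) and 9 (11.5%) were at least 1.5-fold lower (8.84% of all genes). After loess correction or repeated quantile normalization 6 (7.69%) were, beside 8.13% and 7.47% of all genes, so this count was not above that of all genes in each setting. Those 9 were NDUFA2, NDUFA8, NDUFA9, NDUFS1, NDUFS3, SDHC, UQCRC1, ATP5F1A and ATP5PB. Of the 55 bright subunit genes, 8 (14.5%) were at least 1.5-fold lower in R8- than in parental LoVo, beside 14.1% of all bright genes. In R8+ against R8-, 10 genes (12.8%) were at least 1.5-fold higher, where 2.87% of all genes were, and 0 were at least 1.5-fold lower, where 1.08% of all genes were. Of the 55 bright subunit genes, 7 (12.7%) were at least 1.5-fold higher, beside 4.06% of all bright genes. Among all 78 genes the higher count was 9 after loess correction (2.80% of all genes) and 7 after repeated quantile normalization (2.45% of all genes). At 2-fold, ATP5MC1 alone was higher in R8+ than in parental LoVo (1.28% of the subunit genes, 2.25% of all genes higher, 2.30% lower). No subunit gene reached 2-fold in R8- against parental LoVo (1.64% of all genes higher, 2.78% lower), and NDUFA2 alone reached it in R8+ against R8- (0.527% of all genes higher, 0.114% lower). In all, 19 genes (24.4%) passed 1.5-fold in at least 1 comparison, beside 18.4% of all genes and 29.1% of the bright genes, and 59 passed it in none.

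In the deposited values, only NDUFS1 was past 1.5-fold on the same side of parental LoVo in both LoVo-R8 cultures, and ATP5MC1 and ATP5MC2 were so only after another normalization, given with these genes. By sign alone, 17 genes were above parental LoVo in both LoVo-R8 cultures (21.8%, beside 32.1% of all genes) and 32 below it in both (41.0%, beside 30.8% of all genes and 47.8% of the bright genes). Both signs are read against the same parental array. A further 15 (19.2%) were above parental LoVo in R8+ and below it in R8-, beside 6.19% of all genes and 9.64% of the bright genes. The opposite order was shown by 2 (2.56%, beside 10.4% of all genes), COX4I2 and COX6A2. The remaining 12 had the parental value in at least 1 LoVo-R8 culture, and UQCRH and COX7A1 had the same value on all 3 arrays.

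**Figure D2:**
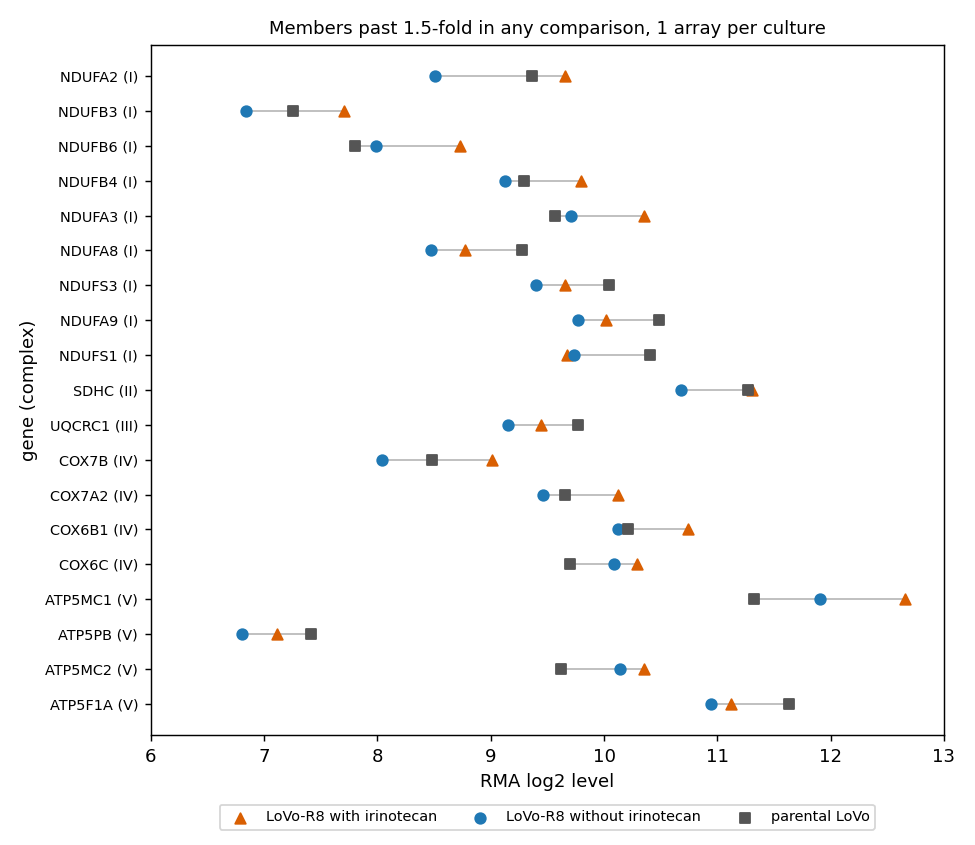
RMA log2 level (horizontal axis) of the 19 genes past 1.5-fold in any comparison, with the complex in brackets, 1 point per array. Triangles are LoVo-R8 with irinotecan, circles LoVo-R8 without irinotecan and squares parental LoVo; the circle of NDUFA2 lies far left of its other points, and the triangle of ATP5MC1 far right.

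In complex I, which oxidizes NADH, the medians were 0 in R8+ against parental LoVo and -0.16 in R8- against parental LoVo. R8+ was above R8- for 24 of the 33 genes, with a median difference of 0.09. The core subunits carry the flavin and the iron-sulfur clusters or bind ubiquinone, and 6 of them were measured, with medians of -0.07 in R8+ and -0.23 in R8- against parental LoVo. NDUFS1, the largest iron-sulfur core subunit, had levels of 9.67 in R8+ and 9.73 in R8-, against 10.40 in parental LoVo. It was 1.67-fold lower in R8+ and 1.59-fold lower in R8-, with log2 differences of -0.74 and -0.67, and the LoVo-R8 arrays lay within 0.06 of each other. NDUFS3, a core subunit near the ubiquinone site, had levels of 9.65 in R8+ and 9.40 in R8-, against 10.04 in parental LoVo. Its difference of -0.64 in R8- was past 1.5-fold, and that of -0.39 in R8+ was not. After loess correction or repeated quantile normalization the difference of NDUFS3 in R8- was -0.56, within 1.5-fold.

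The other core subunits stayed within 1.5-fold. NDUFV1, which binds the flavin and NADH, differed from parental LoVo by -0.15 in R8+ and -0.28 in R8-. NDUFV2, its iron-sulfur partner, differed by 0 in R8+ and -0.16 in R8-. NDUFS7 and NDUFS8 carry the iron-sulfur clusters next to ubiquinone. NDUFS7 differed by 0.10 in R8+ and -0.19 in R8-, and NDUFS8 by 0.16 in R8+ and 0.22 in R8-, the only measured core subunit above parental LoVo in both.

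The accessory subunits surround the core, and those past 1.5-fold are given here. NDUFA8, an accessory subunit facing the intermembrane space, had levels of 8.78 in R8+ and 8.47 in R8-, against 9.27 in parental LoVo (differences of -0.50 and -0.80). NDUFA9, an accessory subunit at the ubiquinone module, had levels of 10.02 in R8+ and 9.77 in R8-, against 10.48 in parental LoVo (differences of -0.47 and -0.71). Both were below parental LoVo in both cultures, past 1.5-fold in R8- and within it in R8+. On the other side, NDUFB6, a membrane arm subunit, had levels of 8.73 in R8+ and 7.99 in R8-, against 7.80 in parental LoVo. NDUFA3, also of the membrane arm, had levels of 10.35 in R8+ and 9.71 in R8-, against 9.57 in parental LoVo. R8+ stood apart for both genes, 1.90-fold above parental LoVo for NDUFB6 and 1.72-fold for NDUFA3, while R8- lay only 0.19 and 0.14 log2 units above parental LoVo. NDUFA12, an accessory subunit of the peripheral arm, was the highest of complex I in R8- against parental LoVo, at 0.28 in each LoVo-R8 culture.

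The widest separation of the LoVo-R8 cultures was that of NDUFA2, an accessory subunit of the NADH-oxidizing module. Its level was 9.65 in R8+ and 8.51 in R8-, against 9.36 in parental LoVo. R8- was the culture that stood apart, 1.81-fold below parental LoVo (-0.86), while R8+ lay 0.29 above it. The R8+ level was 2.21-fold that of R8-. NDUFB3, a membrane arm subunit, had levels of 7.70 in R8+ and 6.84 in R8-, against 7.25 in parental LoVo, and NDUFB4, another, had levels of 9.80 in R8+ and 9.13 in R8-, against 9.29 in parental LoVo. For these genes parental LoVo lay between the LoVo-R8 cultures, which differed by 0.86 for NDUFB3 and 0.67 for NDUFB4. NDUFB4 has 2 probe sets with identical values on each array, so the second adds no separate reading. NDUFB5, another membrane arm subunit, was the lowest in R8+ against R8- of all 78 genes, at -0.29.

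**Figure D3:**
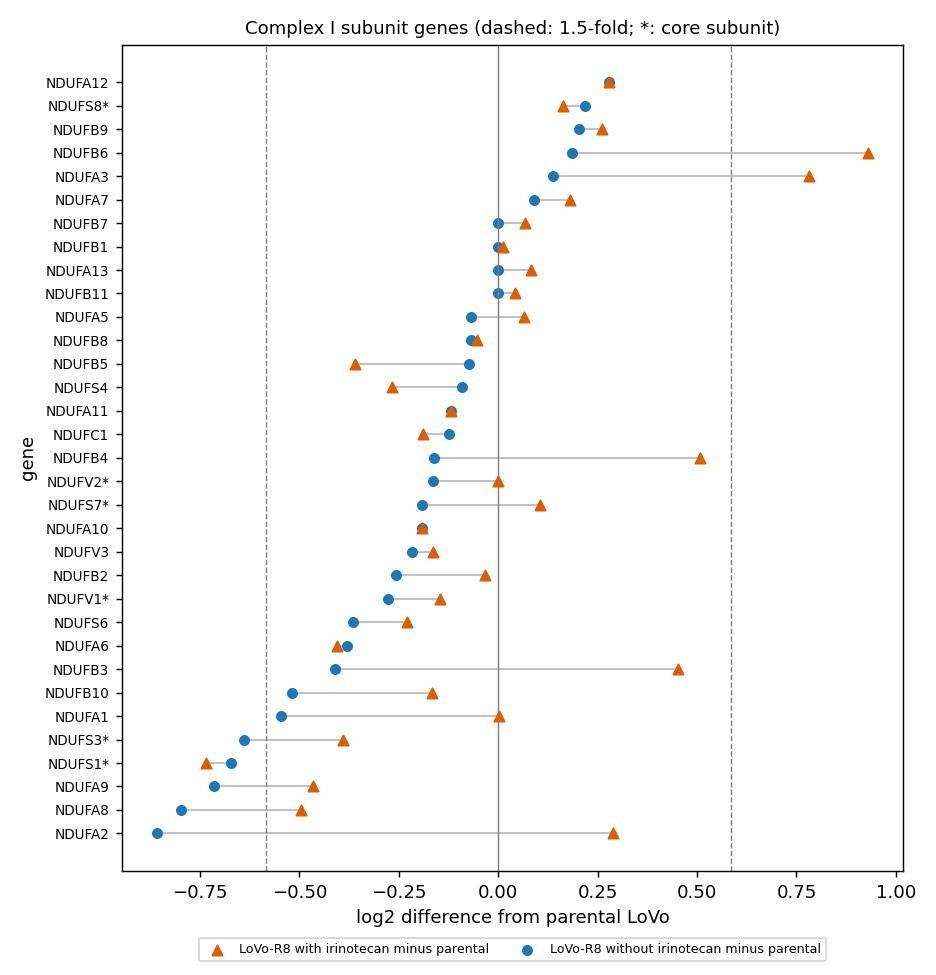
Log2 difference from parental LoVo (horizontal axis) of the 33 complex I genes, ordered by the value without irinotecan. Triangles are LoVo-R8 with irinotecan and circles LoVo-R8 without irinotecan, 1 array each, dashed lines mark 1.5-fold and a star marks a core subunit; the widest gap between the points is that of NDUFA2, and NDUFS1 has both points beyond the lower dashed line.

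Complex II, succinate dehydrogenase, is the only complex of the chain encoded wholly in the nucleus. SDHA, its flavoprotein, had levels of 11.37 in R8+ and 11.14 in R8-, against 10.86 in parental LoVo, above it in both cultures by 0.51 and 0.29. SDHC, a membrane anchor, had levels of 11.31 in R8+ and 10.68 in R8-, against 11.27 in parental LoVo. R8- alone stood apart for SDHC, 1.51-fold below parental LoVo (-0.59), and R8+ exceeded R8- by 0.63. The dimmer probe set of SDHC had the same order, with differences of 0.22 in R8+ and -0.62 in R8- against parental LoVo. SDHC lay at the edge of the threshold, since its difference in R8- was -0.56 after loess correction and -0.55 after repeated quantile normalization, both within 1.5-fold. SDHD, the other membrane anchor, differed from parental LoVo by -0.12 in each LoVo-R8 culture. The dimmer probe set of SDHD did not show this, with differences of 0.04 in R8+ and 0 in R8-. By their brightest probe sets, the members of this small complex thus did not share a direction.

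Complex III, the cytochrome bc1 complex, had no gene above parental LoVo in R8-, with 6 of 8 below and 2 equal. Its median was -0.06 in R8+ and -0.30 in R8- against parental LoVo, and 0.29 in R8+ against R8-, where 7 of 8 genes were higher and 1 equal. UQCRC1, a core protein of the matrix side, had levels of 9.44 in R8+ and 9.15 in R8-, against 9.77 in parental LoVo. Its difference was -0.62 in R8-, past 1.5-fold, and -0.33 in R8+. With loess correction it was -0.54 and with repeated quantile normalization -0.52 in R8-, within 1.5-fold. UQCRC2, its partner core protein, differed by -0.15 in R8+ and -0.23 in R8-, and CYC1, cytochrome c1, by -0.19 in R8+ and -0.36 in R8-. UQCRB, which binds near the ubiquinone site, was the highest of the complex in R8+ against parental LoVo (0.28) and had the parental value in R8-. UQCR10, a small subunit, showed the widest gap between the LoVo-R8 cultures in complex III, at 0.46.

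In complex IV the medians were 0 in R8+ and -0.08 in R8- against parental LoVo, and 0.09 in R8+ against R8-. Leaving out the tissue isoforms moved the last of these to 0.20. COX6C, a small membrane subunit, had levels of 10.29 in R8+ and 10.09 in R8-, against 9.70 in parental LoVo, the highest differences of the complex in both cultures (0.59 and 0.39). The 10 measured genes around COX6C on chromosome 8 had median differences of 0.27 in R8+ and 0.22 in R8- against parental LoVo, and their part in the value of COX6C was not tested. COX7B, a small membrane subunit, had levels of 9.01 in R8+ and 8.04 in R8-, against 8.48 in parental LoVo, a gap of 1.95-fold between the LoVo-R8 cultures with parental LoVo between them. COX7A2, the widely expressed form of its subunit, had levels of 10.13 in R8+ and 9.46 in R8-, against 9.66 in parental LoVo. COX6B1, which faces the intermembrane space, had levels of 10.74 in R8+ and 10.13 in R8-, against 10.21 in parental LoVo. R8+ exceeded R8- by 0.67 for COX7A2 and by 0.61 for COX6B1. The COX6B1 gap was 0.58 after loess correction and 0.57 after repeated quantile normalization, both within 1.5-fold.

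The remaining subunits of complex IV stayed within 1.5-fold. COX4I1, a large nuclear-encoded subunit, was the lowest of the complex in R8+ against parental LoVo, at -0.32, and was -0.41 in R8-. COX7C, a small membrane subunit, was the lowest in R8-, at -0.52, and differed by -0.11 in R8+. COX5A and COX5B, which lie around the catalytic core, differed from parental LoVo by at most 0.14 in size. COX8A, the widely expressed form of the smallest subunit, was above parental LoVo by 0.49 in R8+ and 0.14 in R8-, and COX6A1, the widely expressed form of its subunit, differed by -0.03 and -0.18.

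Several subunits of complex IV have a second form used in particular tissues. The 6 measured here are COX4I2 (lung), COX6A2 and COX7A1 (heart and skeletal muscle) and COX6B2, COX7B2 and COX8C (testis). None was at the upper quartile on any array, and COX7B2 was the only gene of all 78 below the lower quartile, at 4.38 in R8+, 4.33 in R8- and 4.33 in parental LoVo. The differences of these isoforms from parental LoVo lay between -0.20 and 0.18 in R8+ and between -0.12 and 0.21 in R8-, so none passed 1.5-fold. NDUFA4, a subunit of complex IV first assigned to complex I, is named COXFA4 in the annotation and was not chosen by the rule. It had levels of 8.05 in R8+ and 7.22 in R8-, against 7.79 in parental LoVo, and was looked up after the other values had been seen.

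Complex V held the largest difference of all 78 genes from parental LoVo. Its medians were 0.05 in R8+ and -0.08 in R8- against parental LoVo, and R8+ exceeded R8- for 15 of 17 genes, with a median of 0.27. ATP5MC1, ATP5MC2 and ATP5MC3 all encode subunit c, which forms the rotating ring in the membrane, and their mature proteins are the same. ATP5MC1 had levels of 12.65 in R8+ and 11.91 in R8-, against 11.33 in parental LoVo. R8+ stood 2.51-fold above parental LoVo (1.33), and R8- stood 0.580 log2 units above it, just short of 1.5-fold. ATP5MC2 had levels of 10.35 in R8+ and 10.14 in R8-, against 9.62 in parental LoVo, 1.66-fold and 1.44-fold higher. In R8- against parental LoVo, repeated quantile normalization gave 0.61 for ATP5MC1 and 0.60 for ATP5MC2, and loess correction 0.60 for ATP5MC2, all past 1.5-fold. ATP5MC3 was dim, at 6.78 in R8+, 6.60 in R8- and 6.78 in parental LoVo, and did not share the order of the other c genes.

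The start regions of ATP5MC1 and ATP5MC2 are shown because these genes encode the same subunit and were the highest of complex V in both LoVo-R8 cultures. Each sequence runs from 250 bases before to 50 bases after the start used in the RefSeq table of start regions (GRCh38.p14). ATP5MC1 lies at chr17:48892537-48892836 on the plus strand and ATP5MC2 at chr12:53676034-53676333 on the minus strand. The ATP5MC2 window lies inside the gene, whose RefSeq span runs from 53665170 to 53681423, and not at its outer end. Capitals mark the letters GCATGCGC, a core of the site bound by nuclear respiratory factor 1 (NRF1), a transcription factor of many respiratory chain genes. ATP5MC2 holds it 40 bases before the start used here, and ATP5MC1 does not hold it in this window.
ATP5MC1: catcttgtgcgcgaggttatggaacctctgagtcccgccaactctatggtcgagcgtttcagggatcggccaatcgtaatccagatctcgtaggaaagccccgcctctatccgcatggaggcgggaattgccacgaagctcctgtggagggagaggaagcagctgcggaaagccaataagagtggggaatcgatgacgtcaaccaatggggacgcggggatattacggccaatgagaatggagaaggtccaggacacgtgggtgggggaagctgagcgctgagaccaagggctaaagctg
ATP5MC2: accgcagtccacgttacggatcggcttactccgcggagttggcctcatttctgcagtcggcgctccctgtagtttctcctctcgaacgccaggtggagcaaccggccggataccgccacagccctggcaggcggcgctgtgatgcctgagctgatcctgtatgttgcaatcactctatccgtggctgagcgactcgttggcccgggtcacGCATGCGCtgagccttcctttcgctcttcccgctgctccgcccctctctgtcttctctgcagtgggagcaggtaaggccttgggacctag

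No gene of the other parts of the ATP synthase was 1.5-fold higher than in parental LoVo. In the F1 head, where ATP is made, ATP5F1A (subunit alpha) had levels of 11.12 in R8+ and 10.95 in R8-, against 11.63 in parental LoVo, the lowest of complex V in both cultures (-0.51 and -0.69). ATP5F1B, the catalytic subunit beta, differed by at most 0.01, at 13.20 in R8+, 13.21 in R8- and 13.21 in parental LoVo. ATP5F1C, the gamma subunit of the central stalk, was lower by 0.36 in each culture. ATP5F1D, the delta subunit of the central stalk, was 0.38 above parental LoVo in R8+ and 0.34 in R8-. In the peripheral stalk, which holds the head still, ATP5PB (subunit b) had levels of 7.12 in R8+ and 6.80 in R8-, against 7.41 in parental LoVo, and passed 1.5-fold only in R8- (-0.61). ATP5PD (subunit d) was above parental LoVo by 0.51 in R8+ and 0.26 in R8-. The 6 other membrane subunits had a median of 0.23 in R8+ and -0.11 in R8- against parental LoVo, and all 6 were higher in R8+ than in R8-, by 0.27 to 0.45.

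**Figure D4:**
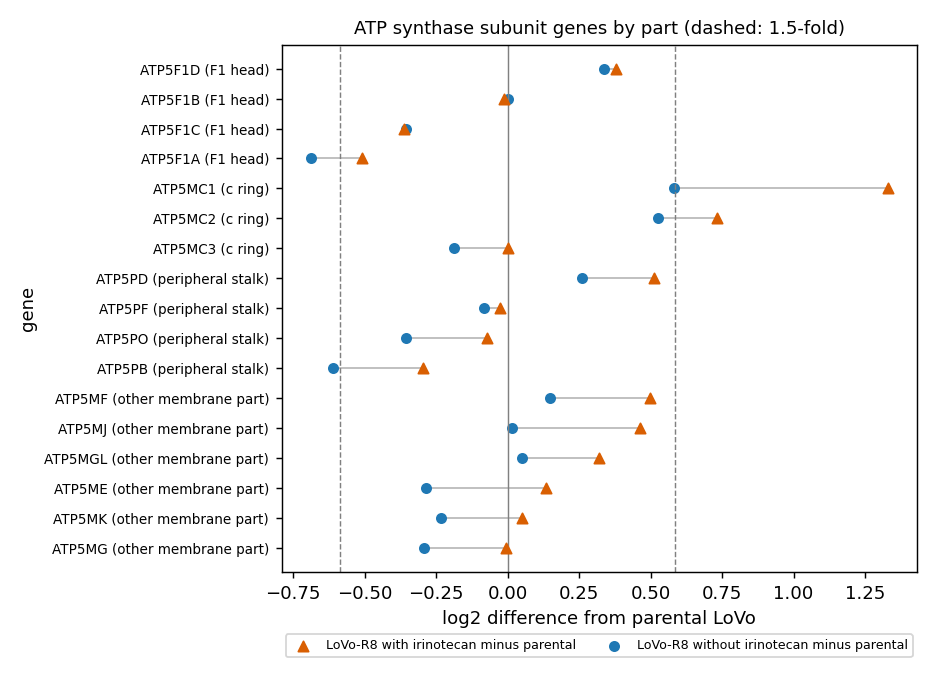
Log2 difference from parental LoVo (horizontal axis) of the 17 ATP synthase genes by part. Triangles are LoVo-R8 with irinotecan and circles LoVo-R8 without irinotecan, 1 array each, and dashed lines mark 1.5-fold; ATP5MC1 and ATP5MC2 lie farthest right, and ATP5F1A lies farthest left.

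The genes that separated the LoVo-R8 cultures belonged to complex I (5 genes), complex II (1 gene), complex IV (3 genes) and complex V (1 gene). The 10 genes at least 1.5-fold higher in R8+ than in R8- were NDUFA2, COX7B, NDUFB3, ATP5MC1, NDUFB6, NDUFB4, COX7A2, NDUFA3, SDHC and COX6B1. These counts share the arrays that chose the genes and are a description. All 10 were above parental LoVo in R8+, and 7 of them were below parental LoVo in R8-. These shares were not computed for all genes chosen in the same way. Of the 9 genes at least 1.5-fold lower in R8- than in parental LoVo, 8 were higher in R8+ than in R8-, all but NDUFS1. Of the 1628 genes of the whole array chosen in the same way 74.0% were, and of the 755 bright ones 78.1%. Of the 9 subunit genes, 7 were still below parental LoVo in R8+, and this share was not computed for all genes. Genes of short nuclear RNAs differed between the same arrays. Of 20 small nuclear RNA genes, 10 were at least 1.5-fold higher in R8+ than in R8-, and of 175 small nucleolar RNA genes 39 (22.3%) were. Of 66 cytosolic ribosomal protein genes, whose messages are short, 1 (1.52%) was, with a median of 0.05. The part of these differences in the subunit values was not tested.

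For the 19 genes past 1.5-fold, the 10 measured protein-coding neighbours (5 on each side) had median differences from parental LoVo between -0.49 and 0.27 in R8+ and between -0.47 and 0.22 in R8-. The neighbours of NDUFA2 on chromosome 5 gave the lowest of these medians, -0.49 in R8+ and -0.47 in R8-, and IK beside it differed by -0.53 and -0.60. NDUFA2 itself lay above parental LoVo in R8+. The neighbours of ATP5MC1 on chromosome 17 had medians of 0.12 in R8+ and 0.05 in R8-, and those of NDUFS1 on chromosome 2 had 0.05 and 0.02. Next to COX7B on the X chromosome, ATP7A, a copper transporter, was higher than in parental LoVo by 1.06 in R8+ and 1.00 in R8-.

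The start regions of 65 of the 78 genes were matched in the RefSeq table, beside 15843 start regions in all. On either strand, GCATGCGC was found in 12 of the 65 (18.5%), against 4.26% of all. The letters AAGATGGCG, of the site bound by YY1, were in 7 (10.8%), against 2.74% of all, and TCAAGGTCA, of the site bound by estrogen-related receptors, in 1 (1.54%), against 0.240% of all. Genes with GCATGCGC had a median difference from parental LoVo of -0.03 in R8+ and -0.18 in R8-, and the 53 matched genes without it had 0 and -0.14. The 7 genes with AAGATGGCG had medians of -0.27 in R8+ and -0.19 in R8-, and the 58 matched genes without it had 0.001 and -0.16. These differences between small groups were not tested. Of the genes past 1.5-fold, ATP5MC2, NDUFA8 and NDUFB4 held GCATGCGC, and NDUFA9 and UQCRC1 held AAGATGGCG. NDUFA8 (complex I) and UQCRC1 (complex III) are shown as a gene of each kind that was past 1.5-fold lower in R8-. NDUFA8 lies at chr9:122159730-122160029 on the minus strand, and its capitals mark GCATGCGC read on both strands, which overlap. UQCRC1 lies at chr3:48609597-48609896 on the minus strand, and its capitals mark AAGATGGCG, which begins 23 bases after the start.
NDUFA8: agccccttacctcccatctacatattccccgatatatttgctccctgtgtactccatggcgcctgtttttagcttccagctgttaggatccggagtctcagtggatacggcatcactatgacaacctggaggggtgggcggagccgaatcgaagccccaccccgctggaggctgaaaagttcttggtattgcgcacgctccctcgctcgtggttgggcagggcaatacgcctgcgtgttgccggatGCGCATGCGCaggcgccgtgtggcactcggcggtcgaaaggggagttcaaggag
UQCRC1: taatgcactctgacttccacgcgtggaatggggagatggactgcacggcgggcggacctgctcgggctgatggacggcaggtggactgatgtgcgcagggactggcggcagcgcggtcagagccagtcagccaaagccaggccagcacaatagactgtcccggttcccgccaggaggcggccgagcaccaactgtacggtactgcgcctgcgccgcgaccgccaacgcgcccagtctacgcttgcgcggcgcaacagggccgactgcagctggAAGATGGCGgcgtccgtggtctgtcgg

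Genes that build or feed the respiratory chain were compared by lists. Of all genes, 5.79% were at least 1.5-fold higher and 7.19% lower in R8+, and 4.37% higher and 8.84% lower in R8-. Of the bright genes, 8.99% were at least 1.5-fold higher and 10.8% lower in R8+, and 6.98% higher and 14.1% lower in R8-. Among 18 regulators of mitochondrial biogenesis, 14 were below parental LoVo in each LoVo-R8 culture, with medians of -0.32 in R8+ and -0.34 in R8-. Below parental LoVo lay 44.7% of all genes and 54.6% of the bright genes in R8+, and 38.5% and 58.4% in R8-. At 1.5-fold, 3 regulators were lower in R8+ and 6 in R8-, and 1 was higher in each. NRF1 itself had levels of 7.39 in R8+ and 7.17 in R8-, against 7.91 in parental LoVo (-0.52 and -0.74). GABPB1, a subunit of the transcription factor also called nuclear respiratory factor 2, had levels of 8.94 in R8+ and 8.74 in R8-, against 9.59 in parental LoVo (-0.65 and -0.84). POLG2, the accessory subunit of the mitochondrial DNA polymerase, was the higher one, at 8.48 in R8+ and 8.31 in R8-, against 7.53 in parental LoVo.

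Assembly factors put the subunits together. Of 16 for complex I, 4 were at least 1.5-fold lower in R8+ and 4 in R8-, and 0 were higher in either. NDUFAF1 had levels of 7.79 in R8+ and 7.57 in R8-, against 8.62 in parental LoVo, and NDUFAF5 differed by -0.94 in R8+ and -0.85 in R8-. Of 16 for complex IV, 1 was lower in R8+ and 2 in R8-, and LRPPRC, which stabilizes mitochondrial messenger RNA, had levels of 10.55 in R8+ and 10.46 in R8-, against 11.46 in parental LoVo. COA3, another complex IV factor, was above R8- by 0.73 in R8+. None of the 3, 6 and 4 factors for complexes II, III and V passed 1.5-fold against parental LoVo. Among 12 electron carriers and related genes, CYCS, cytochrome c, differed by -0.49 in R8+ and -0.65 in R8- and was the only one past 1.5-fold, in R8- alone.

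The tricarboxylic acid cycle and its entry enzyme supply NADH and succinate. Of 17 such genes, 3 were at least 1.5-fold lower in R8+ and 5 in R8-, 0 were higher, and 15 were higher in R8+ than in R8- (median 0.23), where 39.4% of all genes and 57.9% of the bright genes were. DLAT, a subunit of pyruvate dehydrogenase, had levels of 8.62 in R8+ and 8.51 in R8-, against 9.96 in parental LoVo. IDH3A, the catalytic subunit of NAD-linked isocitrate dehydrogenase, had levels of 10.92 in R8+ and 10.69 in R8-, against 12.13 in parental LoVo, more than 2-fold lower in both. Among 13 carriers and uncoupling proteins, MPC1, of the mitochondrial pyruvate carrier, was the only gene past 1.5-fold, lower by 1.39 in R8+ and 1.13 in R8-. Of 16 import genes, 3 were at least 1.5-fold lower in R8+ and 2 in R8-, and TIMM17A, of the inner membrane translocase, differed by -1.06 in R8+ and -1.78 in R8-. Of 73 mitochondrial ribosomal protein genes, 7 (9.59%) were at least 1.5-fold lower in R8+ and 9 (12.3%) in R8-, and 0 were higher. Of the bright genes, 10.8% and 14.1% were that much lower. The medians of the ribosomal protein genes were -0.06 and -0.10, beside -0.04 and -0.09 for the bright genes. The subunits encoded in mitochondrial DNA were not analysed here, since 0 of them are named by a single-gene probe set.

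**Figure D5:**
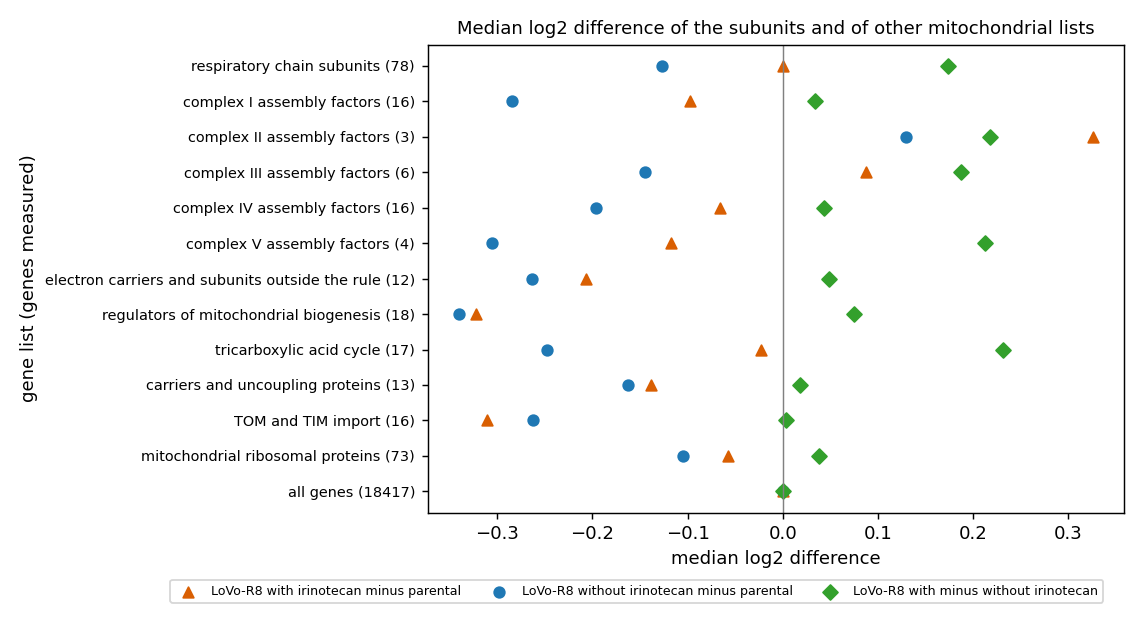
Median log2 difference (horizontal axis) of the respiratory chain subunits, of each other list and of all genes, with the number of genes measured in brackets. Triangles are LoVo-R8 with irinotecan minus parental LoVo, circles LoVo-R8 without irinotecan minus parental LoVo and diamonds LoVo-R8 with minus without irinotecan; the regulators of mitochondrial biogenesis lie at -0.32 and -0.34 against parental LoVo, and all genes at 0.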

How the data were processed

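Total RNA from LoVo-R8 cells with irinotecan, LoVo-R8 cells without irinotecan and parental LoVo cells was hybridized to Human Gene 1.0 ST arrays, 1 per culture. The authors deposited log2 levels for 33297 probe sets after RMA background correction, quantile normalization and median polish. Affymetrix Expression Console 1.1 is named in the submitters' processing notes, and R with Bioconductor in the paper. Levels are relative after this normalization, and the deposited arrays still differ slightly in their quartiles, which repeated quantile normalization removes. Having 3 arrays limits the precision.

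Samples were grouped by their labels. Genes were taken from the platform annotation, in which 19460 probe sets name 1 gene, 1754 several and 12083 none. A gene was represented by its brightest single-gene probe set, and 7 of the subunit genes have more than 1. Differences of log2 levels were counted at 1.5-fold and 2-fold, and no test was run. All 78 genes were matched to RefSeq (GRCh38.p14) by gene identifier, which gave gene class, order and start regions.

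Genes named in the text are those past 1.5-fold in any comparison, the highest and lowest of each complex, tissue isoforms with their partners, core subunits, up to 4 genes of each other list and neighbours of the genes past 1.5-fold. The rule for the 78 genes uses symbols only, but it and the other lists were drawn up with earlier results of these data known. The short RNA classes, the cytosolic ribosomal protein genes, the medians by motif and COXFA4 were added after seeing the values. Alternatives were median centring, loess correction (span 0.3, 3 iterations), repeated quantile normalization, the mean over probe sets, a filter on dim genes, omission of the tissue isoforms and the 2-fold threshold. The calculation was tested on simulated data. Python 3.11.15, numpy 2.4.6, pandas 2.3.3, statsmodels 0.14.6 and matplotlib 3.10.9 were used.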

Additional observations from a re-analysis of the deposited data

Results flagged for a closer look

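For 7 subunit genes the LoVo-R8 cultures lay on opposite sides of parental LoVo and at least 1.5-fold apart, above it with irinotecan and below it without. The difference between LoVo-R8 with and without irinotecan was 1.15 for NDUFA2, 0.97 for COX7B, 0.86 for NDUFB3, 0.67 for NDUFB4, 0.67 for COX7A2, 0.63 for SDHC and 0.61 for COX6B1, on the log2 scale. These differences were not tested, since each culture has 1 array. Over all genes, the size of the difference between the LoVo-R8 arrays was within 0.53 for 95% of genes and within 0.90 for 99%. The share of all genes that met both conditions was not computed. By sign alone, 19.2% of the subunit genes were above parental LoVo with irinotecan and below it without. For all genes that share was 6.19%, and for the bright genes 9.64%.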

How the results depend on the processing

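Of 150 values of the complexes and counts under alternative settings, 142 stayed within 0.1 log2 units or, for counts, within 1.5 times the reported ones, and no called value changed sign. Within those bounds, the genes at least 1.5-fold lower in LoVo-R8 without irinotecan than in parental LoVo numbered 6 after loess correction and after repeated quantile normalization, against 9. The genes at least 1.5-fold higher with than without irinotecan numbered 9 and 7, against 10. The median of all 78 genes without irinotecan against parental LoVo was -0.10 and -0.08, against -0.13. At 2-fold, the counts against parental LoVo were 1 higher and 0 lower with irinotecan and 0 lower without, and 1 gene was higher with than without irinotecan. In LoVo-R8 without irinotecan against parental LoVo, the number of genes at least 1.5-fold higher was 1 after loess correction and 2 after repeated quantile normalization, against 0, and the median of complex I was -0.059 after repeated quantile normalization, against -0.16. Without the tissue isoforms, the median of complex IV in LoVo-R8 with against without irinotecan was 0.20, against 0.09. All 6 tissue isoforms belong to complex IV, so leaving them out could not move the medians of the other complexes. For the 19 genes past 1.5-fold, 215 of 228 values kept their side of the threshold. That total includes settings that could hardly move a value. Median centring shifts each array by a constant, and only 7 of the 78 genes have more than 1 probe set. All 57 values under each of these 2 settings stayed, as did all 24 complex values and counts under each. Loess correction moved 5 gene values and left 52, and repeated quantile normalization moved 8 and left 49. Beside those given with the genes above, NDUFA3 was 0.583 and SDHC 0.56 in LoVo-R8 with against without irinotecan after repeated quantile normalization, both within 1.5-fold. The scalings moved the median of all genes by at most 0.02. Counting NDUFA4 and NDUFA4L2 with complex I was not run, because the annotation names them COXFA4 and COXFA4L2. No paired analysis was possible because each group has 1 array, and no replicate could be left out for the same reason.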
